A study of Homo sapiens with 8 samples.

Results

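The genes described here are the HIF subunits and the oxygen sensing machinery that controls them, namely HIF1A, EPAS1, ARNT, ARNT2, HIF1AN, VHL, EGLN1, EGLN2, EGLN3 and CITED2. They were taken by symbol, each symbol matched 1 gene ID, and they make up 10 of the 24252 rows of each library's table. The series looked for hub genes of complex regional pain syndrome in HaCaT, an immortalised human epidermal keratinocyte line, with bulk RNA sequencing of 4 libraries labelled OGD-R and 4 labelled Control. OGD-R is the usual short form for oxygen-glucose deprivation followed by reoxygenation. The labels place these cells at an early stage, and how long deprivation and reoxygenation lasted is not stated in the sources used here. Control cells carry no treatment label. The labels do not say whether replicates were separate cultures. P-values therefore set differences between groups only against the scatter of these libraries, and that scatter may be technical.

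Hypoxia-inducible factors (HIFs) are dimers of an oxygen-regulated alpha subunit, encoded by HIF1A or EPAS1, and a stable beta subunit, encoded by ARNT or ARNT2. When oxygen is present, the prolyl hydroxylases encoded by EGLN1, EGLN2 and EGLN3 mark the alpha subunit for the VHL ubiquitin ligase, and the asparaginyl hydroxylase encoded by HIF1AN blocks its binding to the coactivators p300 and CBP. Oxygen thereby sets the amount and activity of the alpha proteins, which RNA sequencing does not measure. In skin, the pathway is known for its part in wound repair.

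Values are FPKM, fragments per kilobase of transcript scaled to the library's total, and a single fragment on 2000 bases stood for 0.0225 to 0.0257 FPKM in OGD-R and 0.0201 to 0.0297 FPKM in Control. The OGD-R libraries lay close together, with Pearson correlations of log2 values across 11740 genes from 0.9915 to 0.9934. The Controls fell into pairs. Controls 1 and 2 correlated at 0.9922 and Controls 3 and 4 at 0.9912, whereas correlations across the pairs were 0.8735 to 0.8805. OGD-R libraries correlated at 0.9398 to 0.9466 with Controls 1 and 2 and at 0.8791 to 0.8868 with Controls 3 and 4. No label marks these pairs, so fold changes are given with all Controls and against each pair. With all Controls, the Control spread includes the split between the pairs. The pairs were found from these same values, so p-values against a pair are likely too small. Mitochondrially encoded genes took 26.6% to 29.1% of summed FPKM in OGD-R and 17.5% to 21.9% in Control, and their part in the results was not tested beyond a scaling without them. All 6 keratinocyte markers averaged at least 1 FPKM, with sums of 10208 to 11239 FPKM in OGD-R and 6057 to 7725 FPKM in Control. KRT5 and KRT14, both above every Control in every OGD-R library, made up most of these sums. COL17A1 was lower in OGD-R than in Controls 1 and 2, and TP63 lower than in Controls 3 and 4. Of 5 fibroblast markers only COL1A1 averaged at least 1 FPKM, with sums over the 5 of 3.63 to 4.45 FPKM in OGD-R and 0.866 to 8.72 FPKM in Control, and COL1A2 was at 0. Markers of endothelial cells, leukocytes and melanocytes summed to at most 0.666 FPKM per type in any library.

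HIF1A was the only gene of the set that passed the test between OGD-R and all Controls, and it was lower in OGD-R. Tests used limma on log2(FPKM + 1) over the 11740 genes averaging at least 1 FPKM, with a Benjamini-Hochberg adjusted p of 0.05 as the threshold. Of the 10 genes 8 reached this level, while ARNT2 and EGLN3 did not. Of the 8, limma called 0 higher and 1 lower, and at an unadjusted p under 0.05 there was 1 each way. Over all genes tested 10.2% were called higher, 9.69% lower and 19.9% in either direction, so 1 call among 8 genes is near the background. The median log2 fold change of the 8 genes was 0.05, against 0.02 for all genes tested.

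HIF1A encodes the alpha subunit of HIF-1 (ENSG00000100644, chromosome 14, 61695513 to 61748259, plus strand, GRCh38 as for all genes here). It read 37.3, 34.9, 35.5 and 37.4 FPKM across OGD-R 1 to 4, against 45.5, 50.3, 53.5 and 54.9 FPKM across Controls 1 to 4. Every OGD-R library lay below every Control, as did those of 14.8% of all genes tested, and the OGD-R mean was 0.711 times the Control mean. The log2 fold change was -0.48 ± 0.0872 (SE; limma adjusted p = 0.00756). Against Controls 1 and 2 alone it came to -0.39 ± 0.0657 (SE; limma adjusted p = 0.00092), and against Controls 3 and 4 alone to -0.57 ± 0.0628 (SE; limma adjusted p = 3.76e-05). HIF1A varied little among Controls for these data, with an SD of 0.118 on the log2 scale where the median over all genes tested was 0.286. HIF1A shares 2.87% of its exon bases with AL137129.1 on its own strand and 2.27% with HIF1A-AS1 on the other, neither of which was analysed here. In bulk RNA, fewer cells with a transcript and less of it per cell cannot be told apart.

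EPAS1, which encodes the alpha subunit of HIF-2, lay in OGD-R between the pairs of Controls (ENSG00000116016, chromosome 2, 46293667 to 46386703, plus strand). It read 18.2, 18.2, 18.5 and 19.1 FPKM across OGD-R 1 to 4, against 12.7, 13.1, 22.8 and 23.9 FPKM across Controls 1 to 4. Every OGD-R library was above Controls 1 and 2 and below Controls 3 and 4, an order that 6.79% of all genes tested also had. With all Controls the log2 fold change was 0.08 ± 0.212 (SE; limma adjusted p = 0.814). It was 0.49 (limma adjusted p = 0.000177) against Controls 1 and 2 and -0.32 (limma adjusted p = 0.00158) against Controls 3 and 4.

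Because FPKM is per length, the alpha genes can be set against each other within a library. The ratio of EPAS1 to HIF1A FPKM was 0.488, 0.522, 0.519 and 0.51 for OGD-R 1 to 4, against 0.279, 0.26, 0.425 and 0.436 for Controls 1 to 4. HIF1A was thus the more abundant transcript in all 8 libraries, and the ratio in every OGD-R library was above that in every Control, a difference that was not tested. The summed FPKM of both genes was 53.1 to 56.5 in OGD-R and 58.2 to 78.8 in Control.

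**Figure D1:**
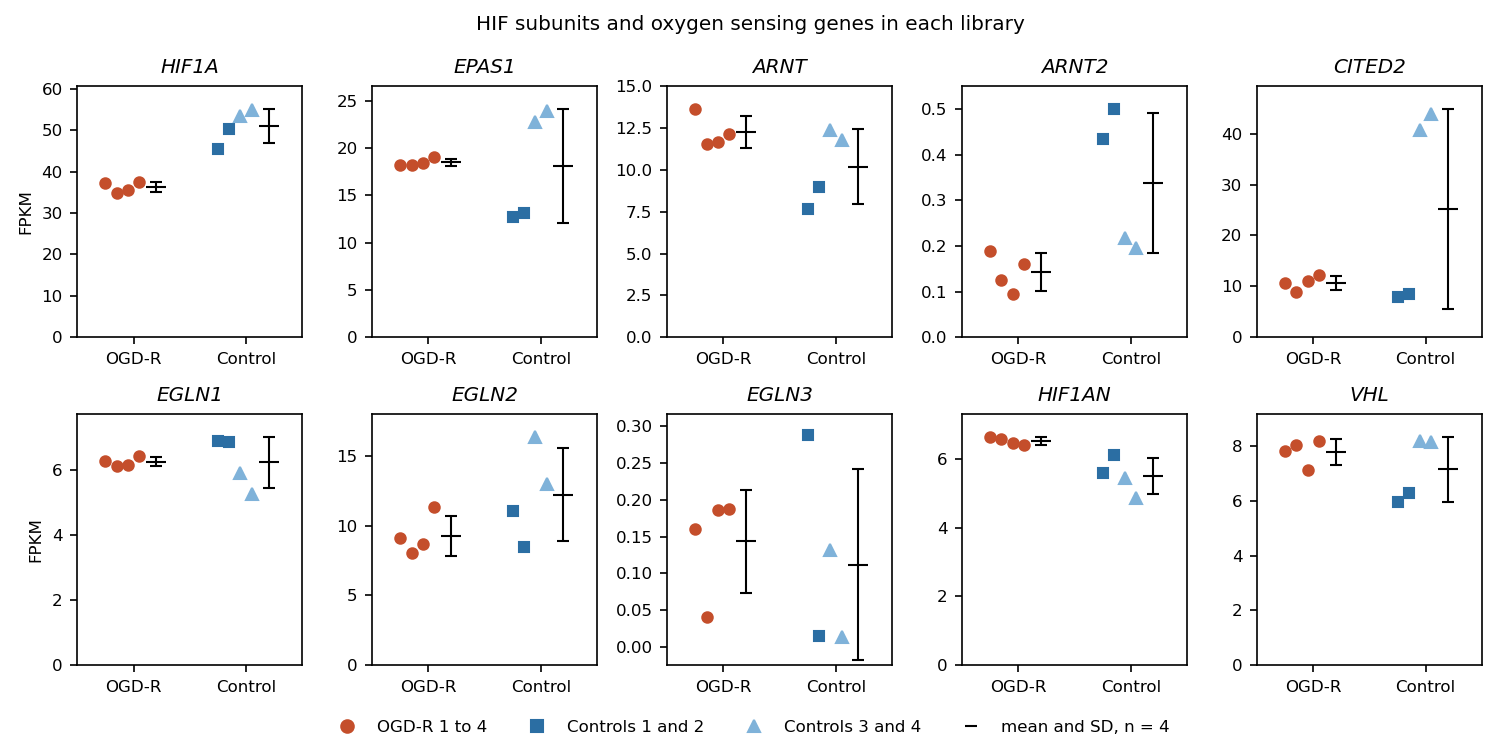
FPKM of each of the 10 genes (vertical axes, linear) in OGD-R and Control libraries, with 1 point per library and a bar for the mean and SD (n = 4 per group). HIF1A lies between 34.9 and 37.4 FPKM in OGD-R and between 45.5 and 54.9 FPKM in Control, whereas for EPAS1 and CITED2 the OGD-R libraries lie between the pairs of Controls.

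ARNT, the beta subunit shared by the HIF alpha subunits and the aryl hydrocarbon receptor, did not pass the test with all Controls (ENSG00000143437, chromosome 1, 150809705 to 150876768, minus strand). It read 13.7, 11.6, 11.7 and 12.1 FPKM across OGD-R 1 to 4, against 7.65, 9.01, 12.4 and 11.8 FPKM across Controls 1 to 4. OGD-R was above Controls 1 and 2 and overlapped Controls 3 and 4. For ARNT the log2 fold change was 0.26 ± 0.151 (SE; limma adjusted p = 0.254), with 0.51 (limma adjusted p = 0.00135) against Controls 1 and 2 and 0.02 (limma adjusted p = 0.858) against Controls 3 and 4. The ratio of HIF1A to ARNT FPKM was 2.73 to 3.08 in OGD-R and 4.32 to 5.95 in Control. These ranges did not overlap, but neither did those of HIF1A alone, and the difference in ratio was not tested.

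ARNT2, a paralog of ARNT known mainly from neurons, was scarcely detected (ENSG00000172379, chromosome 15, 80404350 to 80597937, plus strand). It read 0.19, 0.126, 0.0957 and 0.16 FPKM across OGD-R 1 to 4, against 0.435, 0.501, 0.217 and 0.197 FPKM across Controls 1 to 4. Every OGD-R value was below every Control value, by a small margin against Control 4. How many genes at such low levels have this order was not counted. At the combined length of its exons these values stand for about 15.8 to 28.6 fragments in OGD-R and 25.6 to 91.8 in Control. With no filter on low values the log2 fold change was -0.22 (limma adjusted p = 0.12). The log2 difference was -0.36 against Controls 1 and 2 and -0.08 against Controls 3 and 4.

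EGLN1 encodes PHD2, the main HIF prolyl hydroxylase in most cells (ENSG00000135766, chromosome 1, 231363751 to 231425044, minus strand). It read 6.28, 6.12, 6.16 and 6.44 FPKM across OGD-R 1 to 4, against 6.89, 6.87, 5.9 and 5.27 FPKM across Controls 1 to 4. OGD-R was below Controls 1 and 2 and above Controls 3 and 4, the reverse of EPAS1 and an order that 13.6% of all genes tested had. Its log2 fold change was 0.01 ± 0.0973 (SE; limma adjusted p = 0.955), with -0.12 (limma adjusted p = 0.175) against Controls 1 and 2 and 0.14 (limma adjusted p = 0.13) against Controls 3 and 4.

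EGLN2, which encodes PHD1, was the most abundant EGLN transcript in every library (ENSG00000269858, chromosome 19, 40798996 to 40808433, plus strand). It read 9.1, 8.02, 8.67 and 11.3 FPKM across OGD-R 1 to 4, against 11, 8.48, 16.4 and 13 FPKM across Controls 1 to 4. The groups overlapped, with Controls 3 and 4 above all OGD-R libraries. EGLN2 differed on the log2 scale by -0.34 ± 0.191 (SE; limma adjusted p = 0.248), with -0.06 (limma adjusted p = 0.708) against Controls 1 and 2 and -0.61 (limma adjusted p = 0.00262) against Controls 3 and 4. EGLN2 is uncertain, because 30.6% of its exon bases are shared with the readthrough gene RAB4B-EGLN2, which was listed at 0 to 1.39 FPKM in OGD-R and 0 to 2.8 FPKM in Control.

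EGLN3 encodes PHD3 and is induced by HIF in many cells (ENSG00000129521, chromosome 14, 33924231 to 34462774, minus strand). It read 0.16, 0.0406, 0.186 and 0.187 FPKM across OGD-R 1 to 4, against 0.288, 0.0148, 0.132 and 0.0134 FPKM across Controls 1 to 4. The groups overlapped near 0, and at the combined exon length the values stand for about 6.63 to 29.3 fragments in OGD-R and 1.66 to 52.7 in Control. With no filter its log2 fold change was 0.05 (limma adjusted p = 0.766), and the log2 difference was -0.00183 against Controls 1 and 2 and 0.0925 against Controls 3 and 4. EGLN3 made up 0.287 to 1.24% of summed EGLN FPKM in OGD-R and 0.0734 to 1.58% in Control. The share of EGLN2 was 56.6 to 63.1% in OGD-R, and in Controls 1 to 4 it was 60.6, 55.2, 73.1 and 71.1%. That of EGLN1 was 35.8 to 43.2% in OGD-R, and in Controls 1 to 4 it was 37.8, 44.7, 26.3 and 28.8%. Controls 3 and 4 had the highest EGLN2 shares and the lowest EGLN1 shares of the 8 libraries.

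**Figure D2:**
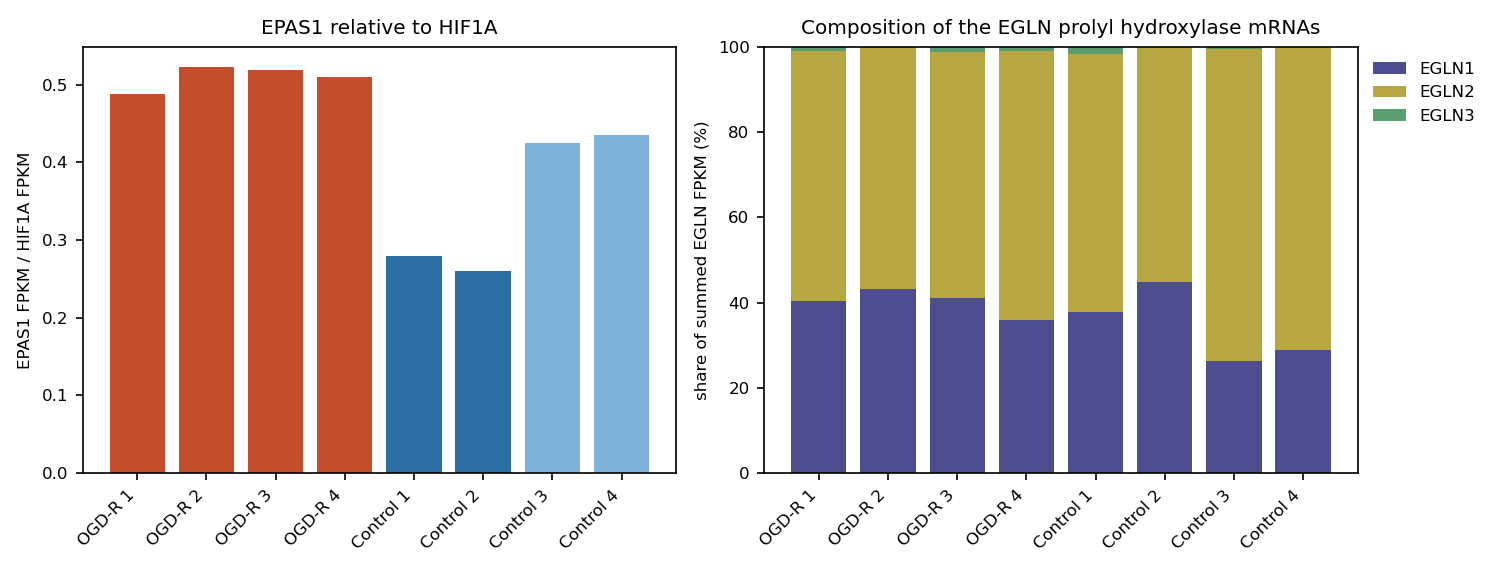
Ratio of EPAS1 to HIF1A FPKM and share of EGLN1, EGLN2 and EGLN3 in their summed FPKM in percent, for OGD-R 1 to 4 and then Controls 1 to 4. The ratio is 0.488 to 0.522 in OGD-R and at most 0.436 in Control, and EGLN2 takes its largest shares in Controls 3 and 4.

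HIF1AN, which encodes factor inhibiting HIF, did not pass the test although its groups did not overlap (ENSG00000166135, chromosome 10, 100529072 to 100559998, plus strand). It read 6.67, 6.61, 6.47 and 6.43 FPKM across OGD-R 1 to 4, against 5.6, 6.12, 5.45 and 4.87 FPKM across Controls 1 to 4. Every OGD-R library was above every Control, as were those of 15.2% of all genes tested. In the test the log2 fold change was 0.22 ± 0.0844 (SE; limma adjusted p = 0.11), with 0.14 (limma adjusted p = 0.144) against Controls 1 and 2 and 0.29 (limma adjusted p = 0.00668) against Controls 3 and 4. Scaled without mitochondrial genes it passed, with a log2 fold change of 0.28 (limma adjusted p = 0.0322). HIF1AN shares 2.33% of its exon bases with NDUFB8 on the other strand, a respiratory chain gene at 62 to 77.1 FPKM in OGD-R and 40.2 to 93.7 FPKM in Control. Whether the counting used strand is not stated in the sources used here, so reads of these genes cannot be told apart there.

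VHL, the substrate receptor of the ubiquitin ligase that removes hydroxylated HIF alpha, did not pass with all Controls (ENSG00000134086, chromosome 3, 10141008 to 10152220, plus strand). It read 7.82, 8.03, 7.13 and 8.19 FPKM across OGD-R 1 to 4, against 5.96, 6.3, 8.21 and 8.16 FPKM across Controls 1 to 4. OGD-R was above Controls 1 and 2 and overlapped Controls 3 and 4. For VHL the log2 fold change was 0.12 ± 0.118 (SE; limma adjusted p = 0.519), with 0.3 (limma adjusted p = 0.0104) against Controls 1 and 2 and -0.06 (limma adjusted p = 0.476) against Controls 3 and 4.

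CITED2 had the largest spread among Controls of the 8 tested genes. It encodes a HIF-induced protein that competes with HIF alpha subunits for p300 and CBP (ENSG00000164442, chromosome 6, 139371807 to 139374620, minus strand). CITED2 read 10.6, 8.97, 11 and 12.3 FPKM across OGD-R 1 to 4, against 7.88, 8.52, 40.6 and 43.8 FPKM across Controls 1 to 4. OGD-R lay slightly above Controls 1 and 2 and far below Controls 3 and 4. With all Controls the log2 fold change was -0.77 ± 0.562 (SE; limma adjusted p = 0.368). It was 0.34 (limma adjusted p = 0.0241) against Controls 1 and 2 and -1.89 (limma adjusted p = 4.12e-07) against Controls 3 and 4. The Control SD of 1.29 on the log2 scale was at the 97th percentile of genes tested. The ratio of CITED2 to HIF1A FPKM was 0.257 to 0.328 in OGD-R, against 0.173, 0.169, 0.759 and 0.797 for Controls 1 to 4.

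Read against a pair of Controls, more of the 8 genes passed, but so did most genes tested. Against Controls 1 and 2, EPAS1, ARNT, VHL and CITED2 were called higher and HIF1A lower, where 22.8% of all genes tested were called higher, 32.4% lower and 55.2% in either direction. Against Controls 3 and 4, HIF1AN was called higher and HIF1A, EPAS1, EGLN2 and CITED2 lower, where 39.2% were called higher, 28.4% lower and 67.6% in either direction. EPAS1 and CITED2 were thus called in opposite directions by the pairs. Both fits use the same OGD-R libraries and take the spread within a pair as the Control spread. The pairs were found from these same values, so that spread may understate the scatter among Controls. The fits are therefore not independent support for a call.

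**Figure D3:**
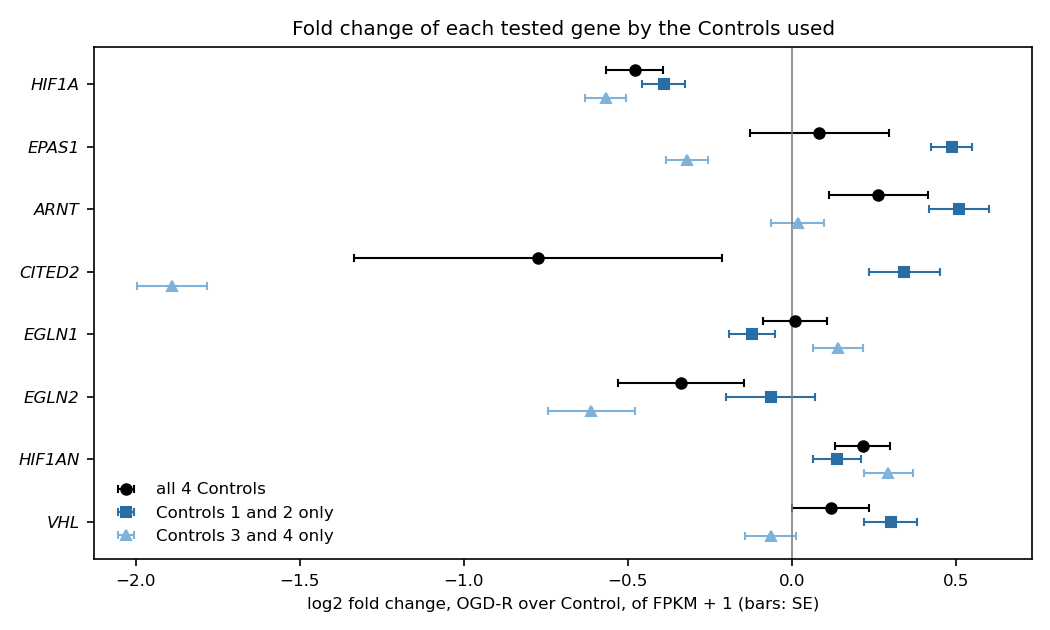
Log2 fold change of FPKM + 1, OGD-R over Control (horizontal axis, bars show the SE), for the 8 tested genes with all 4 Controls, with Controls 1 and 2 only and with Controls 3 and 4 only. HIF1A is below 0 in each fit, from -0.57 to -0.39, while CITED2 is at 0.34 against Controls 1 and 2 and at -1.89 against Controls 3 and 4.

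In OGD-R the mean FPKM ran from HIF1A (36.3) through EPAS1 (18.5), ARNT (12.3), CITED2 (10.7), EGLN2 (9.28), VHL (7.79) and HIF1AN (6.54) to EGLN1 (6.25). Ranges overlapped between ARNT and CITED2, CITED2 and EGLN2, EGLN2 and VHL, and HIF1AN and EGLN1, so these neighbours were not separated by range. Within every OGD-R library, CITED2 was nonetheless above EGLN2. In Control, over both pairs together, the order was HIF1A (51.1), CITED2 (25.2), EPAS1 (18.1), EGLN2 (12.2), ARNT (10.2), VHL (7.16), EGLN1 (6.23) and HIF1AN (5.51). There only HIF1A was separated by range from its neighbour among these. Within every Control library, EPAS1 was nonetheless above EGLN2, ARNT above VHL and EGLN1 above HIF1AN. The place of CITED2 rested on Controls 3 and 4, where it averaged 42.2 FPKM. In Controls 1 and 2 it averaged 8.2 FPKM, below EPAS1 (12.9), EGLN2 (9.76) and ARNT (8.33). All 10 genes had a larger SD of log2 values in Control than in OGD-R. The same held for the median over all genes tested, with an SD of 0.286 in Control and 0.0902 in OGD-R.

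HIF dimers bind DNA at a short core, ACGTG or GCGTG, and several genes of this pathway are known HIF targets, so the promoters were read for these letters on both strands. The RefSeq promoter table (GRCh38.p14, 250 bases before to 50 after the start) held 8 of the 10 genes, ARNT2 and VHL being the others. Of the 8 genes 5 had either core, where 48.4% of all 27305 promoters of this length did. ARNT, HIF1AN and EGLN3 had none, which says only that these letters are not in this window. For EPAS1, EGLN1, EGLN3 and HIF1AN the promoter window lies wholly inside the gene coordinates given above. Its start is therefore not the outermost end of the gene. The windows of 30 bases around the core, 5′ to 3′ on the gene's strand, are shown because they include HIF1A, which fell, and EPAS1 and CITED2, which lay between the pairs of Controls. Capitals mark the letters found. In EGLN2 and CITED2 they read CACGTG, where ACGTG lies on both strands at overlapping positions, and 7.43% of the promoters hold it. A match describes the letters and is not a binding site.
HIF1A, chr14:61695296-61695325, plus strand: ttggctgagagcgGCGTGggctggggtggg
EPAS1, chr2:46297277-46297306, plus strand: ggggcctgccggcGCGTGcccgcccacaca
EGLN1, chr1:231422288-231422317, minus strand: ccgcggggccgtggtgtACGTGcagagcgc
EGLN2, chr19:40799130-40799159, plus strand: gcggggcgcggtCACGTGcccaccgggcga
CITED2, chr6:139374784-139374813, minus strand: cagcctctgcagCACGTGccgcgggcggcg

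Genes with the most similar pattern were sought by the root mean square difference, over 8 libraries, of log2 values centred on each gene's mean, among 11079 genes. For HIF1A, which itself varied by 0.252 around its mean, these were KIAA0930 (0.0302), OSBPL10 (0.039) and KIAA1549L (0.0395). KIAA0930 read 6.74, 6.68, 6.51 and 6.87 FPKM across OGD-R 1 to 4, against 8.48, 9.23, 10.4 and 10.2 FPKM across Controls 1 to 4. For EPAS1, which varied by 0.29, they were HERPUD2 (0.0451), CD24 (0.0483) and ZNF627 (0.0523). HERPUD2 read 18.6, 18.9, 18.2 and 18.7 FPKM across OGD-R 1 to 4, against 14, 13.3, 23.6 and 24.4 FPKM across Controls 1 to 4. For CITED2, which varied by 0.886, they were HIVEP1 (0.101), JUND (0.112) and SHC2 (0.114). JUND, a subunit of the AP-1 transcription factor, read 8.94, 8.62, 10.03 and 8.8 FPKM across OGD-R 1 to 4, against 7.4, 7.61, 34.8 and 38.1 FPKM across Controls 1 to 4.

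The lists that follow are read against the shares called over all genes tested, which were 10.2% higher and 9.69% lower with all Controls, 22.8% and 32.4% against Controls 1 and 2, and 39.2% and 28.4% against Controls 3 and 4. The VHL ligase and other genes of HIF turnover were mostly not called with all Controls. Of 18 tested genes 0 rose and 1 fell in limma (2 higher and 3 lower at an unadjusted p under 0.05), and the median log2 fold change was -0.09. Limma called 2 of them higher and 6 lower against Controls 1 and 2, and 8 higher and 7 lower against Controls 3 and 4. The gene that fell was STUB1, a chaperone-associated ubiquitin ligase, which read 28.1, 25.8, 24.5 and 25.8 FPKM across OGD-R 1 to 4, against 35.3, 33.9, 36.3 and 32.9 FPKM across Controls 1 to 4. STUB1 had a log2 fold change of -0.4 (limma adjusted p = 0.0115), with -0.4 against Controls 1 and 2 and -0.4 against Controls 3 and 4. Fitting the replicate number as well ended the STUB1 call. The VHL ligase subunits CUL2, ELOB, ELOC and RBX1 did not pass. The scaffold CUL2 averaged 15.1 ± 0.81 FPKM across OGD-R and 14.2 ± 2.7 FPKM across Control libraries (SD, n = 4 each), and the RING protein RBX1 averaged 17 ± 1.56 FPKM across OGD-R and 15 ± 5.9 FPKM across Control libraries (SD, n = 4 each).

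Coactivators and other HIF partners were also mostly not called with all Controls. Of 13 tested genes 0 rose and 1 fell in limma (0 higher and 2 lower at an unadjusted p under 0.05), and the median log2 fold change was -0.11. Limma called 2 of them higher and 4 lower against Controls 1 and 2, and 3 higher and 6 lower against Controls 3 and 4. EP300 and CREBBP encode p300 and CBP, and neither passed (limma adjusted p = 0.251 and 0.924). EP300 read 8.81, 8.05, 7.68 and 8.04 FPKM across OGD-R 1 to 4, against 6.65, 7.65, 7.27 and 7.54 FPKM across Controls 1 to 4. Its groups did not overlap, with OGD-R above Control as for 15.2% of all genes tested. CREBBP averaged 9.54 ± 0.524 FPKM across OGD-R and 9.7 ± 1.2 FPKM across Control libraries (SD, n = 4 each). CDK8, the Mediator kinase, had a log2 fold change of -0.37 (limma adjusted p = 0.0272), with -0.27 against Controls 1 and 2 and -0.47 against Controls 3 and 4, and leaving out Control 3 or any 1 of the OGD-R libraries, or scaling without mitochondrial genes, ended the call. HIF3A, which encodes a further alpha subunit, was listed at 0 except in OGD-R 4, at 0.00753 FPKM.

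Among partners of ARNT and targets of the aryl hydrocarbon receptor, of 7 tested genes 0 rose and 1 fell in limma (0 higher and 2 lower at an unadjusted p under 0.05), and the median log2 fold change was -0.23. Limma called 0 of them higher and 5 lower against Controls 1 and 2, and 3 higher and 2 lower against Controls 3 and 4. TIPARP, a receptor target that encodes a mono-ADP-ribosyltransferase, read 27.2, 29.8, 28.9 and 30.2 FPKM across OGD-R 1 to 4, against 44.1, 50.05, 87.3 and 82.4 FPKM across Controls 1 to 4. Its groups did not overlap, with OGD-R below Control as for 14.8% of all genes tested. The log2 fold change of TIPARP was -1.1 (limma adjusted p = 0.0118), with -0.68 against Controls 1 and 2 and -1.52 against Controls 3 and 4.

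Of the other oxygenases, which like the EGLN enzymes use oxygen as a substrate, 21.4% were called, near the 19.9% of all genes tested. Of 28 tested genes 2 rose and 4 fell in limma (6 higher and 4 lower at an unadjusted p under 0.05), and the median log2 fold change was -0.01. Limma called 9 of them higher and 8 lower against Controls 1 and 2, and 10 higher and 12 lower against Controls 3 and 4. RIOX2, a ribosomal histidine hydroxylase, read 14.9, 14.9, 14.7 and 15.1 FPKM across OGD-R 1 to 4, against 21.2, 23.9, 22.7 and 23.3 FPKM across Controls 1 to 4, and had a log2 fold change of -0.58 (limma adjusted p = 0.00148), with -0.57 against Controls 1 and 2 and -0.6 against Controls 3 and 4. JMJD6, a lysyl hydroxylase, had -0.66 (limma adjusted p = 0.0251), with -0.77 against Controls 1 and 2 and -0.56 against Controls 3 and 4, a call that did not hold without OGD-R 2 or without OGD-R 4. P4HA1, a collagen prolyl hydroxylase subunit that HIF is also known to induce, read 30.6, 31.4, 30.1 and 32 FPKM across OGD-R 1 to 4, against 24.7, 26.3, 16.3 and 16.1 FPKM across Controls 1 to 4. P4HA1 had a log2 fold change of 0.58 (limma adjusted p = 0.0455), with 0.27 against Controls 1 and 2 and 0.9 against Controls 3 and 4, and leaving out Control 3, Control 4 or any 1 of the OGD-R libraries, or testing with no filter on low values, ended the call.

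The other called oxygenases, ADO, PLOD3 and TET2, were named after their values were seen. ADO, a thiol dioxygenase that acts as an oxygen sensor through the N-degron pathway, read 8.23, 7.53, 7.31 and 8.11 FPKM across OGD-R 1 to 4, against 10.6, 11.6, 11.7 and 11 FPKM across Controls 1 to 4. Its log2 fold change was -0.48 (limma adjusted p = 0.00483), with -0.46 against Controls 1 and 2 and -0.49 against Controls 3 and 4. PLOD3, a collagen lysyl hydroxylase, had -0.55 (limma adjusted p = 0.0127), with -0.74 against Controls 1 and 2 and -0.37 against Controls 3 and 4. TET2, a DNA demethylase, had 0.5 (limma adjusted p = 0.0165), with 0.61 against Controls 1 and 2 and 0.4 against Controls 3 and 4. Leaving out any 1 of the OGD-R libraries ended the TET2 call. Fitting the replicate number as well ended the calls of ADO, PLOD3 and TET2.

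Among genes listed as HIF targets, none was called higher with all Controls, although P4HA1, which stands in the oxygenase list, was. Of 24 tested HIF targets 0 rose and 4 fell in limma (0 higher and 6 lower at an unadjusted p under 0.05), and the median log2 fold change was -0.17. Limma called 6 of them higher and 12 lower against Controls 1 and 2, and 7 higher and 12 lower against Controls 3 and 4. The median was -0.27 against Controls 1 and 2 and -0.27 against Controls 3 and 4, beside -0.05 and 0.09 for all genes tested. CA9, a carbonic anhydrase gene widely used as a mark of HIF activity and named after its values were seen, was below the level for testing. It read 0.587, 0.263, 0.265 and 0.13 FPKM across OGD-R 1 to 4, against 0.0217, 0.0506, 0 and 0 FPKM across Controls 1 to 4, so that every OGD-R library was above every Control at these low levels. The share of genes at such levels with this order was not counted. ADM, LDHA and BHLHE40, named after their values were seen, had opposite signs against the pairs and did not pass with all Controls. The log2 fold change of ADM, which encodes adrenomedullin, was 1.1 against Controls 1 and 2 and -0.34 against Controls 3 and 4. That of LDHA, a lactate dehydrogenase gene, was -0.28 against Controls 1 and 2 and 0.82 against Controls 3 and 4. That of BHLHE40, a transcriptional repressor gene, was 1.19 against Controls 1 and 2 and -3.0 against Controls 3 and 4. VEGFA, the angiogenic growth factor gene, read 11, 10.6, 11.3 and 12.1 FPKM across OGD-R 1 to 4, against 25.8, 25.8, 128 and 142 FPKM across Controls 1 to 4. VEGFA had a log2 fold change of -2.3 (limma adjusted p = 0.0279), with -1.13 against Controls 1 and 2 and -3.47 against Controls 3 and 4, and leaving out Control 3 or any 1 of the OGD-R libraries ended the call.

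SLC2A3, a glucose transporter gene, read 0.514, 0.326, 0.449 and 0.737 FPKM across OGD-R 1 to 4, against 1.23, 1.39, 5.57 and 5 FPKM across Controls 1 to 4. SLC2A3 had a log2 fold change of -1.35 (limma adjusted p = 0.0382), with -0.62 against Controls 1 and 2 and -2.07 against Controls 3 and 4, and leaving out Control 3, Control 4 or any 1 of the OGD-R libraries, or testing with no filter on low values, ended the call. HK2, a hexokinase gene named after its values were seen, read 5.17, 5.31, 5 and 5.7 FPKM across OGD-R 1 to 4, against 10.1, 10.4, 21.2 and 17.7 FPKM across Controls 1 to 4, with a log2 fold change of -1.27 (limma adjusted p = 0.00722), and of -0.84 against Controls 1 and 2 and -1.7 against Controls 3 and 4. SLC2A1, the main glucose transporter gene of keratinocytes, averaged 28.9 ± 1.6 FPKM across OGD-R and 29.8 ± 5.96 FPKM across Control libraries (SD, n = 4 each; limma adjusted p = 0.924), and its log2 fold change was -0.26 against Controls 1 and 2 and 0.22 against Controls 3 and 4.

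**Figure D4:**
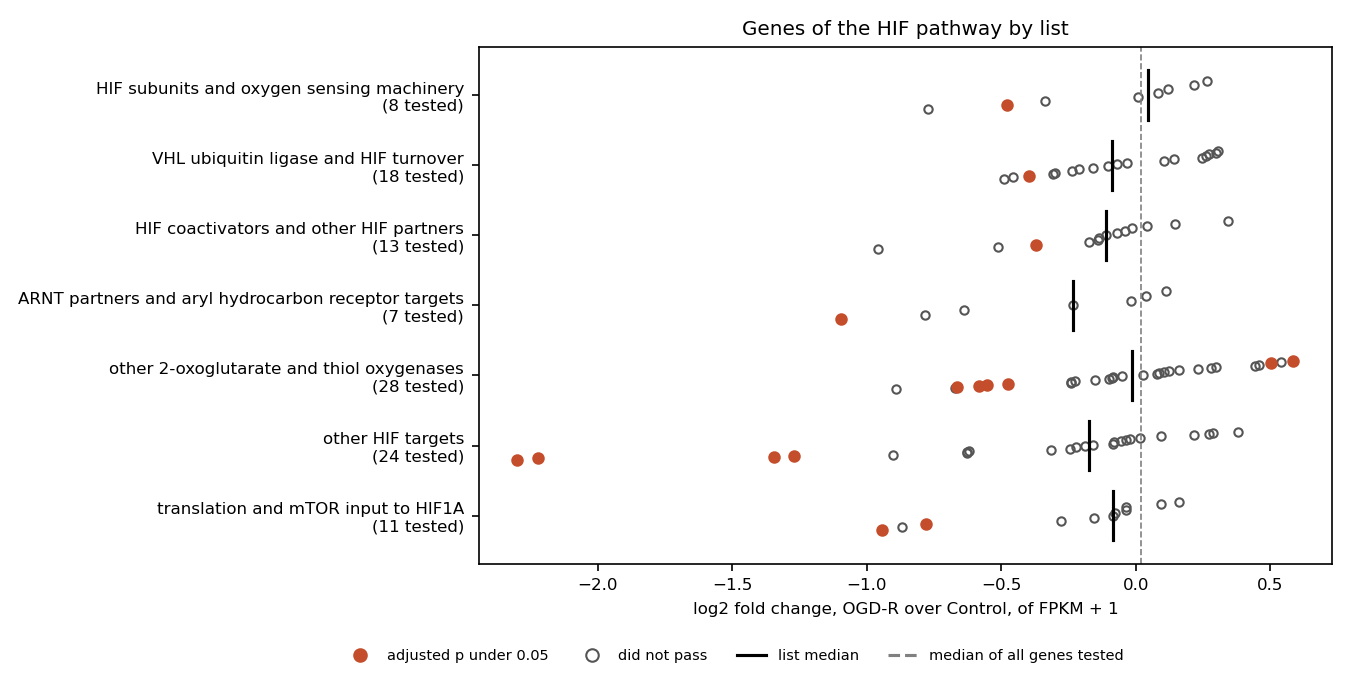
Log2 fold change of FPKM + 1, OGD-R over Control, of each tested gene in the set and in 6 lists of related genes, with filled points for adjusted p under 0.05, a black line for each list's median and a dashed line for the median of all genes tested. Most points of each list are open, and the filled points of the HIF targets are all below 0.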

How the data were processed

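The 8 HaCaT libraries were grouped by title. Per the labels' protocols, both a NEBNext and a SMARTer kit are named for making libraries from total RNA. Aligner, counting tool, build and annotation are not stated in the sources used here. Each library has a table of its own, whose unit is not named. The values the authors deposited were taken to be FPKM, since FPKM multiplied by length clustered at a constant in low single-exon genes: 11 to 19 values per library lay within 1% of it, so unit and depth rest on few values. That constant implies 16800000 to 24900000 fragments per library. FPKM is scaled to the library's total, so genes that take a larger share lower the rest.

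Genes averaging at least 1 FPKM were tested as log2(FPKM + 1) in limma 3.58.1 (R 4.3.3) with an intensity trend and Benjamini-Hochberg adjustment over all of them; the scale understates changes of low genes. Coordinates and exon overlaps come from GENCODE 29 (GRCh38), matched by ID. The members and the 6 lists were chosen with earlier results of these data known. Up to 3 called genes per list, those with the largest fold change, were named. A called gene among the HIF targets is not reported here. At most 1 value above 0 was identical between any libraries. In simulations of OGD-R against Control (11740 genes, 200 changed, 5 runs) with each group's own spread, the test found 32.8% of the genes changed by 1.5 times, 69% of those changed by 2 times and 89.7% of those changed by 4 times, while 22.3% of its calls were false. With the OGD-R spread in both groups 4.72% were false. How far these percentages hold for these data, where limma called 2340 genes and Controls fell into pairs, was not tested. Alternatives covered filter, pseudocount, trend, scaling, libraries left out and a replicate block. Plots used matplotlib 3.10.9 under Python 3.11.15.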

Additional observations from a re-analysis of the deposited data

How the results depend on the processing

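HIF1A kept its direction in all 18 alternatives and its call in 17, with log2 fold changes from -0.53 to -0.44 when each library was left out in turn. Scaled without mitochondrial genes, HIF1A was at -0.41 (limma adjusted p = 0.0276), and scaled to a common total at -0.56 (limma adjusted p = 0.00903). Labels give both groups the same replicate numbers, but same-numbered libraries deviated together only weakly (correlations of 0.045, 0.0646, 0.0578 and 0.0585). OGD-R 1, 2 and 3 correlated better with Control 2 (0.0666), Control 1 (0.109) and Control 4 (0.113). Correlations of OGD-R 1 and 2 were above 0 with Controls 1 and 2 and below 0 with Controls 3 and 4. Those of OGD-R 3 and 4 had the reverse signs. Deviations were taken from each group's own mean, so with Controls in pairs, opposite signs across the pairs are largely built in. The signs therefore cannot decide whether libraries were linked. The numbers were not taken as pairs, and whether libraries of the groups were linked was not tested. With the replicate block HIF1A had a limma adjusted p of 0.0542, 0 of the 8 genes were lower, and 625 genes were higher and 507 lower in all. The block also ended the calls of STUB1, CDK8, P4HA1, PLOD3, TET2, ADO, SLC2A3, EIF4EBP1 and RELA. With all libraries 1202 genes were higher and 1138 lower. Leaving out single libraries gave 711 to 1426 higher and 561 to 1312 lower, with 1 of the 8 genes lower and 0 higher each time. Without Controls 3 and 4 there were 2673 higher and 3807 lower, among them 4 and 1 of the 8 genes, and without Controls 1 and 2 there were 4603 and 3337, among them 1 and 4. Scaled without mitochondrial genes 1 of the 8 genes, HIF1AN, was higher. The cause of these shifts was not tested.

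Several genes that did not pass with all Controls changed direction, and the cause was not tested. The log2 fold change of EPAS1 was -0.0582 without Control 1, -0.0444 without Control 2 and -0.32 without both, and single libraries left out gave -0.0582 to 0.229. EGLN1 was at -0.0346 with median-of-ratios scaling, at -0.0552 scaled to a common total, at -0.12 without Controls 3 and 4, and between -0.0573 and 0.0535 with single libraries left out. VHL was at -0.0645 without Controls 1 and 2, and CITED2 at 0.34 without Controls 3 and 4. Depth limits ARNT2 and EGLN3, whose log2 differences with a pseudocount of 0.1 were -0.8 and 0.34, against -0.22 and 0.05 with 1.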

Other observations

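Genes of the mTOR pathway and other known inputs to HIF1A synthesis were not called higher with all Controls. Of 11 tested genes 0 rose and 2 fell in limma (0 higher and 4 lower at an unadjusted p under 0.05), and the median log2 fold change was -0.09, against 0.02 for all genes tested. Limma called 3 of them higher and 5 lower against Controls 1 and 2, and 1 higher and 4 lower against Controls 3 and 4. EIF4EBP1, which encodes a translation repressor that mTOR inactivates, read 35.7, 29.2, 31.7 and 27.1 FPKM across OGD-R 1 to 4, against 45.4, 43.5, 79.3 and 83.2 FPKM across Controls 1 to 4 (limma adjusted p = 0.0256), with a log2 fold change of -0.52 against Controls 1 and 2 and -1.37 against Controls 3 and 4. RELA, an NF-kB subunit gene, read 24.4, 21.9, 22.1 and 21.7 FPKM across OGD-R 1 to 4, against 32.6, 29.1, 50.4 and 49.9 FPKM across Controls 1 to 4 (limma adjusted p = 0.023), with a log2 fold change of -0.44 against Controls 1 and 2 and -1.12 against Controls 3 and 4. Leaving out any 1 of the OGD-R libraries ended both calls, as did leaving out Control 3 for EIF4EBP1. MTOR averaged 14.2 ± 1.02 FPKM across OGD-R and 15.1 ± 2.61 FPKM across Control libraries (SD, n = 4 each; limma adjusted p = 0.699), and its log2 fold change was -0.24 against Controls 1 and 2 and 0.09 against Controls 3 and 4.

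Some pathway genes, chosen after their values were seen, were high in Controls 3 and 4 as CITED2 was. Against Controls 3 and 4 alone, limma called 28.4% of all genes tested lower, so such genes are common here. SIAH1 and SIAH2 encode ubiquitin ligases that act on prolyl hydroxylases. SIAH1 read 10.5, 9.83, 10.7 and 13 FPKM across OGD-R 1 to 4, against 9.66, 11.1, 24.9 and 22.8 FPKM across Controls 1 to 4 (limma adjusted p = 0.282), with a log2 fold change of 0.07 against Controls 1 and 2 and -1.06 against Controls 3 and 4. SIAH2 read 14.5, 13.3, 12.8 and 13.7 FPKM across OGD-R 1 to 4, against 13.3, 14, 27.6 and 24.9 FPKM across Controls 1 to 4 (limma adjusted p = 0.209), with a log2 fold change of -0.01 against Controls 1 and 2 and -0.9 against Controls 3 and 4. None of these passed with all Controls, nor did the following. KDM6A, an oxygen-sensitive histone demethylase gene, read 8.66, 7.6, 7.83 and 8.63 FPKM across OGD-R 1 to 4, against 5.57, 6.49, 15.1 and 15.8 FPKM across Controls 1 to 4 (limma adjusted p = 0.648), with a log2 fold change of 0.39 against Controls 1 and 2 and -0.84 against Controls 3 and 4. AHR, the aryl hydrocarbon receptor gene, read 12.1, 12.6, 11.4 and 12 FPKM across OGD-R 1 to 4, against 13.3, 14.2, 33.4 and 33 FPKM across Controls 1 to 4 (limma adjusted p = 0.112), with a log2 fold change of -0.18 against Controls 1 and 2 and -1.39 against Controls 3 and 4. CITED4, a paralog of CITED2, read 6.62, 5.29, 6.04 and 6.41 FPKM across OGD-R 1 to 4, against 6.61, 9.53, 19.2 and 21.1 FPKM across Controls 1 to 4 (limma adjusted p = 0.0764), with a log2 fold change of -0.34 against Controls 1 and 2 and -1.58 against Controls 3 and 4.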
